A study of Mus musculus with 14 samples.

Results

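Nrep, Retreg3, Tmem238, Limd2 and Zbed5 are 5 of the 12085 genes tested in mouse liver, chosen by their large falls after tunicamycin in lsPERK liver, that is, selected on the intensities of the lsPERK arrays. Each was read by its brightest probe set, the one with the highest mean log2 intensity over the 14 arrays. The 5 genes have 11 probe sets of their own among the 45101 on the array, and 8 of these passed the filter on dim signals. The choice went by falls in lsPERK liver, but the ranking of these falls took its spread from all 14 arrays, WT included. In WT liver, Nrep, Retreg3, Limd2 and Tmem238 also fell, whereas Zbed5 did not pass the test. A common description of all 5 as falls that occur with and without PERK therefore holds for 4 of them in these data, and Zbed5 is described apart.

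The samples were whole livers, 1 oligonucleotide array each, in 4 groups: lsPERK with 1 mg/kg tunicamycin (4 arrays), lsPERK with 0.3% DMSO (3 arrays), WT with 1 mg/kg tunicamycin (4 arrays) and WT with 0.3% DMSO (3 arrays). The titles place the tunicamycin samples at 6 h, and for DMSO no time is stated, so treatment and time of collection cannot be told apart. lsPERK is the knock-out genotype of the series. The labels used here do not give the deleted part of the gene, the driver of the deletion, the strain, the age or the sex. Whether each array stands for a different mouse is not stated either, and the p-values then reflect the scatter of these arrays, which may be technical.

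Tunicamycin blocks N-linked glycosylation, and unfolded proteins then accumulate in the endoplasmic reticulum (ER). PERK, the product of Eif2ak3, is a kinase of the ER membrane that phosphorylates eIF2 and so lowers general translation while favouring ATF4 and its targets. IRE1 and ATF6 are the other branches of this unfolded protein response, and the response includes lower as well as higher transcript levels. The 5 genes belong to no common pathway. Retreg3 encodes a reticulon-homology membrane protein of the FAM134 family of ER-phagy receptors, which bend ER membrane and link it to the autophagy machinery. Nrep encodes P311, a small intracellular protein known for raising the translation of TGF-beta isoforms. Limd2 encodes a LIM domain protein whose human counterpart binds integrin-linked kinase (ILK). Zbed5 encodes a BED-type zinc finger protein derived from a DNA transposon. Tmem238 encodes a small predicted membrane protein.

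Eif2ak3 itself averaged an intensity of 281 (239 to 316) in lsPERK tunicamycin, 140 (127 to 157) in lsPERK control, 1897 (1725 to 2420) in WT tunicamycin and 338 (240 to 443) in WT control. The labels do not say whether its probe set lies in the deleted part. Hspa5, the ER chaperone BiP, rose in both genotypes, by log2 1.02 in lsPERK and 1.26 in WT liver (limma adjusted p = 5.27e-05 and 2.94e-05). Ddit3, which encodes CHOP, rose by log2 2.45 in lsPERK and 6.12 in WT liver (limma adjusted p = 5.73e-05 and 1.06e-07). The hepatocyte marker Alb, the albumin gene, was bright in every group, at a mean log2 intensity of 13.85 in lsPERK tunicamycin, 13.84 in lsPERK control, 13.93 in WT tunicamycin and 13.96 in WT control. Of 7 hepatocyte markers tested, limma called 0 higher and 1 lower in lsPERK liver (Ass1, log2 -1.25). In WT liver it called 1 higher (Tat, log2 0.88) and 0 lower. The median log2 changes were 0.01 in lsPERK and -0.02 in WT liver. The Ass1 probe set was dim, at a mean log2 intensity of 5.83 in lsPERK tunicamycin and 7.09 in lsPERK control. It stood at 6.44 in WT tunicamycin and 6.24 in WT control. These means lie far below those of Alb, so nothing about hepatocytes is read from the Ass1 call. Every group held arrays with and without signal of Xist, the RNA of the inactive X chromosome (Xist-high on 2 of 4 lsPERK tunicamycin, 2 of 3 lsPERK control, 1 of 4 WT tunicamycin and 1 of 3 WT control arrays). All intensities below are quantile normalised unless deposited values are named.

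The lsPERK response chose the genes and is given as a description. In a limma fit of the 4 group means over all 14 arrays, 7.27% of all genes were called lower in lsPERK liver. When these were ranked by the upper 95% confidence limit of the log2 change, the 8 that lay farthest from 0 were Ces1g, Cyp7a1, Nrep, Tmem238, Retreg3, Limd2, Ces1d and Zbed5. Zbed5 was the last of these, with an upper limit of -1.99. Mrnip, with -1.96, and Tk1, which encodes thymidine kinase, with -1.88, came just after it. The spread in this fit included that of the WT arrays. A small WT scatter could thus favour a gene in this ranking, and the WT p-values rest on that same scatter. All tunicamycin arrays lay below all control arrays in lsPERK liver for 5 of 5 genes, against 13.8% of all genes tested, and nothing is read from that count because the choice rested on this contrast.

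In WT liver, limma on the 7 WT arrays called 4 of the 5 genes lower, against 23.2% of all genes tested (adjusted p under 0.05 over 12085 genes). The share of all genes depended on the scaling, and was 4.73% on the values as deposited and 12.5% after median centring, with 4 of the 5 genes called lower under each. The same 4 had WT tunicamycin arrays that all lay below the WT control arrays, against 26.6% of all genes tested. Fewer genes passed a cut at 2-fold: 7.84% of all genes were called lower and changed at least 2-fold, and the 4 genes were among them. By size of the WT fall they ranked 11 (Nrep), 54 (Retreg3), 57 (Limd2) and 259 (Tmem238) of 12085 genes. Genes that fall strongly in lsPERK liver were often lower in WT liver as well. Of 211 other genes called lower at least 2-fold in lsPERK liver, 152 (72%) were called lower in WT liver. The median log2 change of all genes was -0.02 in lsPERK and -0.13 in WT liver, and -0.07 and 0.30 on the values as deposited. In bulk liver, fewer cells of a type and less RNA per cell cannot be told apart.

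**Figure D1:**
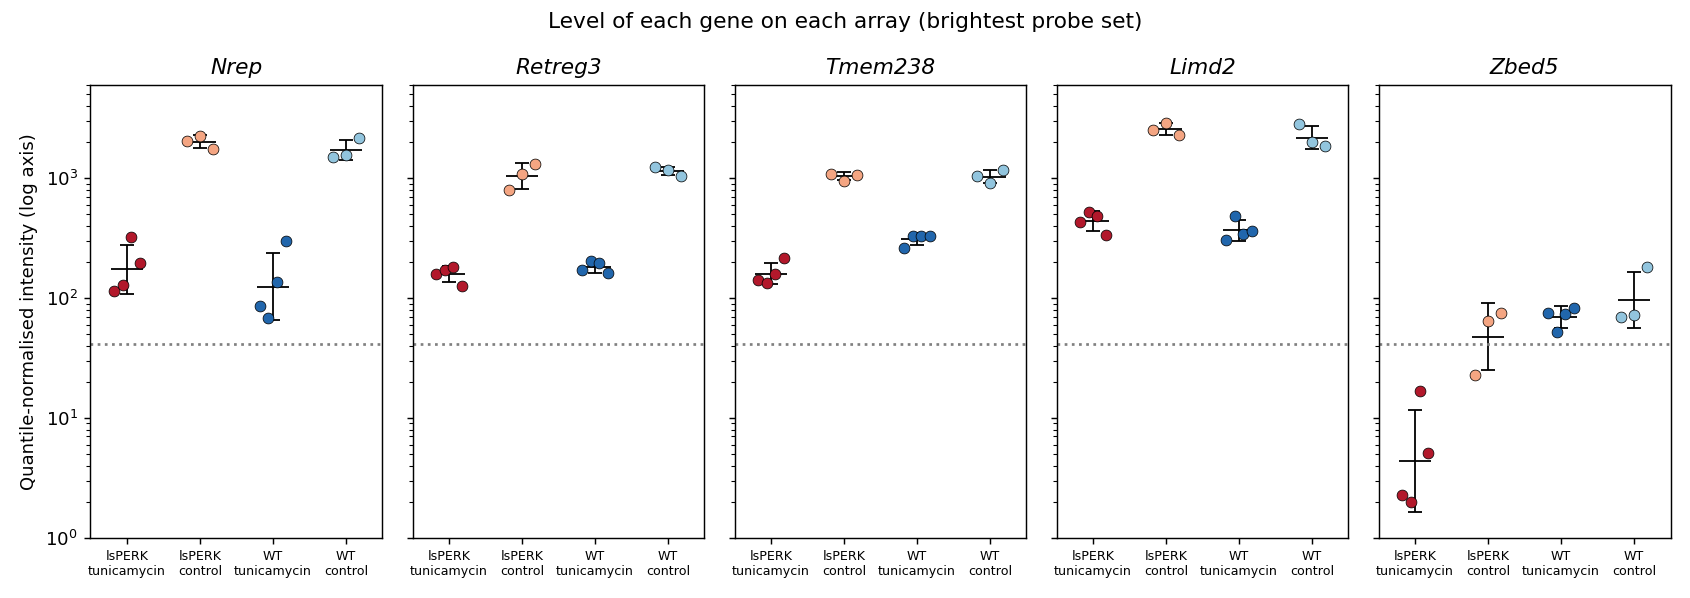
Quantile-normalised intensity (log axis) of each gene's brightest probe set on each of the 14 arrays, by group. Points are arrays, bars the mean and SD of the log2 intensities, and the dotted line the filter threshold (41.5); for 4 genes the tunicamycin arrays lie below the control arrays in both genotypes, and for Zbed5 all lsPERK tunicamycin arrays lie below the threshold.

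Retreg3 read 160, 173, 181 and 126 on the lsPERK tunicamycin arrays, against 793, 1078 and 1321 on the lsPERK control arrays. It read 171, 202, 196 and 161 on the WT tunicamycin arrays, against 1231, 1164 and 1050 on the WT control arrays. Tunicamycin and control arrays lay far apart in both genotypes, while the ranges of lsPERK and WT overlapped within each treatment. The WT fall was 6.30-fold (log2 -2.66, SE 0.13, limma adjusted p = 4.8e-06), which left 15.9% of the control level (95% confidence interval 12.9% to 19.6%). In lsPERK liver the log2 difference was -2.72, and 15.2% of the control level was left.

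The other kept probe set of Retreg3 showed a smaller fall in the same direction. It read 103, 120, 123 and 68.1 in lsPERK tunicamycin, against 417, 282 and 410 in lsPERK control. It read 145, 152, 107 and 116 in WT tunicamycin, against 338, 409 and 491 in WT control. Neither genotype's groups overlapped, and the WT log2 difference was -1.67 (SE 0.19, limma adjusted p = 0.000234 over all 21808 kept probe sets, of which 19.1% were called lower). The probe sets thus gave falls of 6.30-fold and 3.18-fold for one gene in WT liver. The third was under the filter threshold and is not read.

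Limd2 fell in WT liver by nearly as much as Retreg3. It read 435, 527, 486 and 335 in lsPERK tunicamycin, against 2526, 2893 and 2303 in lsPERK control. It read 303, 488, 340 and 361 in WT tunicamycin, against 2809, 1990 and 1865 in WT control. Every tunicamycin array was below every control array of either genotype. The WT fall was 5.95-fold (log2 -2.57, SE 0.20, limma adjusted p = 3.87e-05), and 16.8% of the control level was left (95% confidence interval 12.2% to 23.1%). In lsPERK liver the log2 difference was -2.54, with 17.2% left.

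The brightest probe set of Limd2 is of the Affymetrix x_at type, whose probes can match other transcripts as well. The next kept one is not of this type. It read 90.8, 59.2, 64.6 and 56.7 in lsPERK tunicamycin, against 417, 494 and 362 in lsPERK control. It read 51.8, 86.8, 40.7 and 45.4 in WT tunicamycin, against 411, 317 and 278 in WT control. Its WT log2 difference of -2.62 (SE 0.28, limma adjusted p = 0.00016 over all kept probe sets) was within the error of the first. The remaining 2 probe sets of Limd2 did not pass the filter.

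Limd2 is also expressed in leukocytes, and the leukocyte markers had negative median changes. Of 7 lymphocyte markers tested, 0 were called by limma in either direction in either genotype, with 4 in lsPERK and 0 in WT liver at an unadjusted p under 0.05, and their median log2 change was -0.82 in lsPERK and -0.72 in WT liver. Their summed intensity ran from 490 to 674 in lsPERK tunicamycin and from 633 to 1557 in lsPERK control. It ran from 358 to 1197 in WT tunicamycin and from 534 to 1667 in WT control. Of 10 Kupffer cell and macrophage markers, limma called 0 in lsPERK liver and 1, Cd5l, lower in WT liver (log2 -1.10), and their median log2 changes were -0.55 and -0.70. Of 3 neutrophil markers, limma called 0 in either genotype, with 2 in lsPERK and 0 in WT liver at an unadjusted p under 0.05. Their median log2 change was -1.42 in lsPERK and -0.71 in WT liver, with S100a8 at -1.42 and -1.02 and S100a9 at -1.53 and -0.71. The third, Ngp, stood at 0.23 in lsPERK and -0.28 in WT liver. Ngp lay below the filter threshold of log2 5.37 on average in every group, as did S100a9 in both tunicamycin groups. Of 9 endothelial markers, 0 were called higher and 1 lower in lsPERK liver, and 0 higher and 2 lower in WT liver, with median log2 changes of 0.01 and -0.02. Of 3 cholangiocyte markers, limma called 1, Sox9, higher in lsPERK liver and 0 in WT liver, with median log2 changes of 1.44 and 0.56. In WT liver 2 had an unadjusted p under 0.05 and moved in opposite directions, Sox9 (0.97) and Krt19 (-1.01). Krt19 stood at 1.81 in lsPERK liver, and Epcam at -0.03 in lsPERK and 0.56 in WT liver. The single erythroid marker tested was not called (log2 0.73 and 1.00). Cd79a was not among the genes tested. The part of these cells in the Limd2 result was not tested.

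Nrep had the largest WT fall of the 5 genes. In WT tunicamycin it also had the widest spread of the 5, with an SD of 0.94 on the log2 scale, while in lsPERK tunicamycin its SD of 0.68 was below that of Zbed5 (1.41). It read 115, 128, 323 and 195 in lsPERK tunicamycin, against 2054, 2255 and 1757 in lsPERK control. It read 86.3, 68.6, 136 and 300.4 in WT tunicamycin, against 1500.0, 1564 and 2144 in WT control. WT tunicamycin replicate 4 and lsPERK tunicamycin replicate 3 were the highest of their groups, and both were still well below every control array. The WT fall was 13.7-fold (log2 -3.78, SE 0.45, limma adjusted p = 0.000296), with 7.28% of the control level left (95% confidence interval 3.58% to 14.8%). By size of the log2 change it was the 11th largest fall of the 12085 genes in WT liver. In lsPERK liver the log2 difference was -3.53, and 8.67% was left.

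The second probe set of Nrep, unlike the first, is of the x_at type, whose probes can match other transcripts. It gave the same picture. It read 101, 60.4, 338 and 158 in lsPERK tunicamycin, against 2015, 2191 and 1333 in lsPERK control. It read 55.9, 68.4, 105 and 194 in WT tunicamycin, against 1192, 1445 and 1511 in WT control. The same replicates were highest after tunicamycin as with the first probe set. Its WT log2 difference was -3.87 (SE 0.38, limma adjusted p = 0.000102 over all kept probe sets).

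Nrep is also known from fibroblasts and other mesenchymal cells. Of 9 stellate cell and fibroblast markers tested, 0 were called higher and 1 lower in each genotype: Col3a1 in lsPERK liver (log2 -0.67) and Reln in WT liver (log2 -0.48). Their median log2 changes were 0.04 in lsPERK and -0.37 in WT liver. Their summed intensity ran from 10264 to 13860 in lsPERK tunicamycin, 10960 to 12832 in lsPERK control, 8490 to 11748 in WT tunicamycin and 10050 to 14655 in WT control, and these ranges overlapped. Col1a1 was not among the genes tested, and the part of these cells in the Nrep result was not tested.

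Tmem238 fell in WT liver to a level that stayed above that of lsPERK liver after tunicamycin. It read 142, 134, 160 and 214 in lsPERK tunicamycin, against 1092, 947 and 1072 in lsPERK control. It read 264, 329, 328 and 329 in WT tunicamycin, against 1034, 915 and 1160 in WT control. The controls of both genotypes overlapped, the tunicamycin groups lay below them, and every lsPERK tunicamycin array lay below every WT tunicamycin array. The lsPERK tunicamycin arrays were among those that chose the gene, so nothing is read from this last separation. The WT fall was 3.32-fold (log2 -1.73, SE 0.14, limma adjusted p = 4.29e-05), and 30.2% of the control level was left (95% confidence interval 24.2% to 37.5%). In lsPERK liver the log2 difference was -2.69, with 15.5% left. Tmem238 has 1 probe set, so no second reading exists.

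Zbed5 was near the filter threshold in 3 groups and below it in lsPERK tunicamycin. It read 2.26, 1.97, 16.7 and 5.09 in lsPERK tunicamycin, against 22.6, 64.0 and 75.3 in lsPERK control. It read 75.2, 51.6, 73.8 and 82.3 in WT tunicamycin, against 69.0, 72.7 and 181 in WT control. The WT groups overlapped, and WT control replicate 3 alone stood above the WT tunicamycin arrays. The WT log2 difference was -0.47 (SE 0.36, limma adjusted p = 0.326), and its 95% confidence interval of -1.30 to 0.35 includes falls of more than 2-fold. Without WT control replicate 3 that difference was -0.02.

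In lsPERK liver the fitted log2 difference of Zbed5 was -3.44. Since the tunicamycin arrays were under the filter threshold of 41.5, the fall is bounded only as at least 1.15-fold, with those arrays raised to the threshold. One of the 3 lsPERK control arrays was itself under it. With intensities below the pooled 25th percentile raised to that value, the difference was -1.93. Its single probe set with no other gene assigned was used here, and 1 further probe set that carries several gene symbols was not.

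The order of the 4 group levels was as follows for the genes that fell in both genotypes. For Nrep and Limd2 it was lsPERK control, WT control, lsPERK tunicamycin and WT tunicamycin from high to low, and for Retreg3 WT control, lsPERK control, WT tunicamycin and lsPERK tunicamycin. In these 3 genes the controls overlapped each other, the tunicamycin groups overlapped each other, and only the step between controls and tunicamycin groups exceeded the spread of the arrays. Tmem238 had a second step, of 0.96 on the log2 scale, between WT and lsPERK tunicamycin. For Zbed5 the first 3 groups, WT control, WT tunicamycin and lsPERK control, overlapped their neighbours, and only lsPERK tunicamycin stood apart. The lsPERK arrays in these orders chose the genes, and the steps that involve them were not tested.

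The difference between both responses (lsPERK minus WT, log2) was 0.25 for Nrep, -0.06 for Retreg3, 0.03 for Limd2, -0.96 for Tmem238 and a fitted -2.96 for Zbed5. The value of Zbed5 rests on lsPERK tunicamycin arrays under the filter threshold, and it was -1.46 with intensities below the pooled 25th percentile raised to that value. These differences contain the contrast that chose the genes and were not tested. On the values as deposited, Nrep changed sign (-0.23), as did Limd2 (-0.51), Retreg3 stood at -0.56 and Tmem238 at -1.52.

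**Figure D2:**
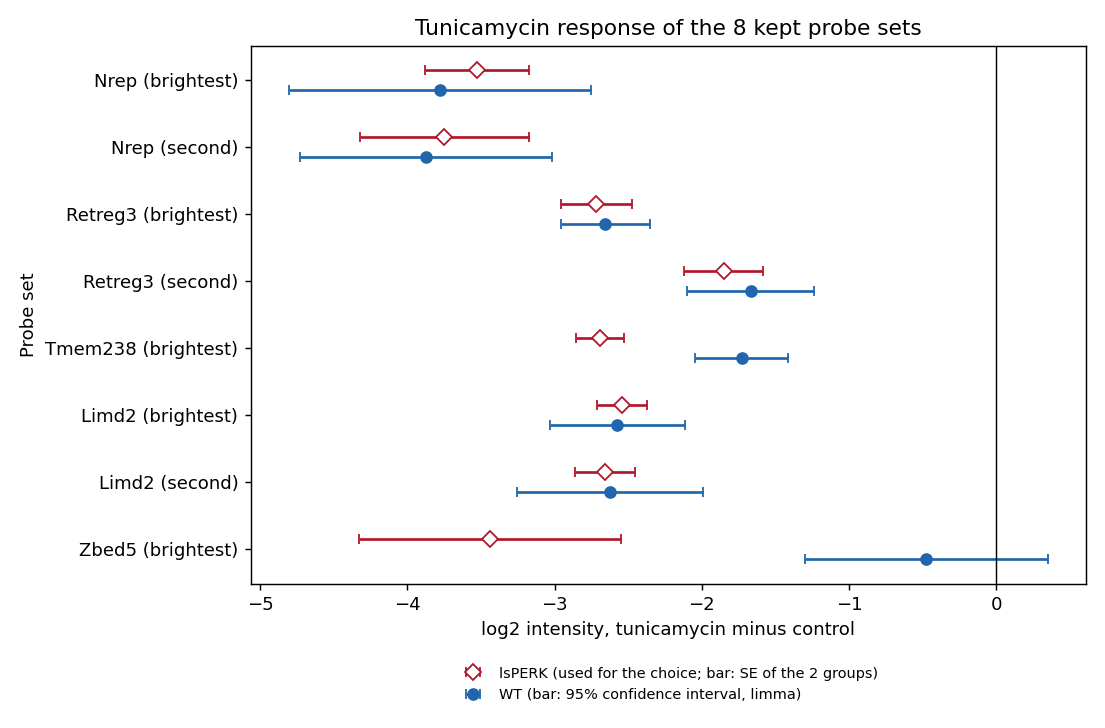
Log2 intensity difference between tunicamycin and control for the 8 kept probe sets, with lsPERK (open diamonds, SE of the 2 groups) above WT (filled circles, 95% confidence interval from limma). The WT intervals of Nrep, Retreg3, Limd2 and Tmem238 exclude 0, and that of Zbed5 runs from -1.30 to 0.35.

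**Figure D3:**
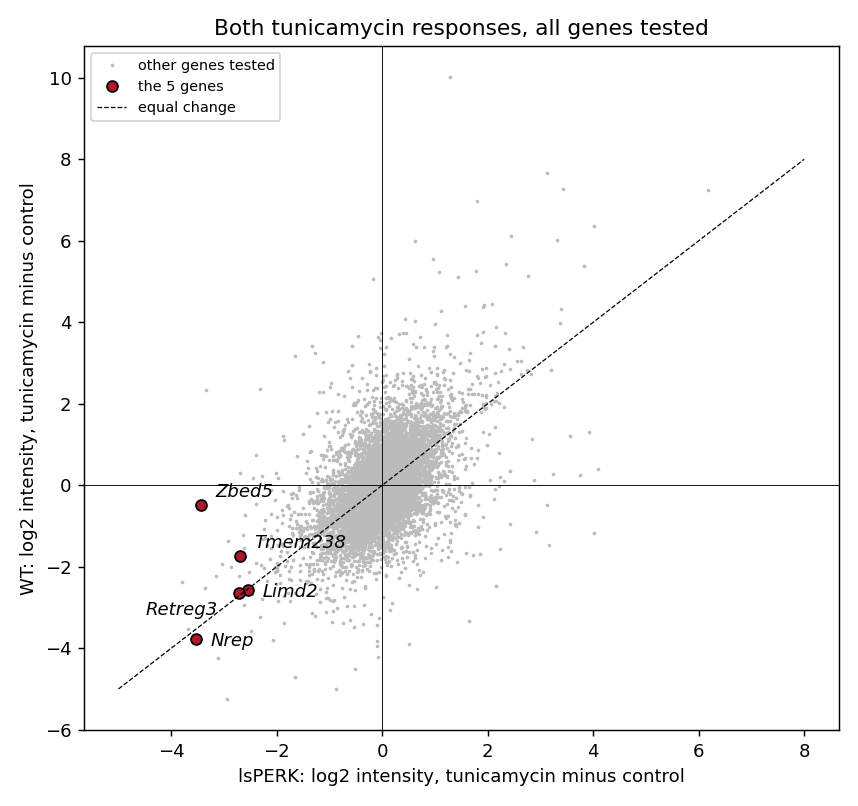
Log2 difference between tunicamycin and control in lsPERK liver (horizontal) and WT liver (vertical) for the 12085 genes tested, with the 5 genes in red and a dashed line of equal change. Retreg3 (-2.72 and -2.66) and Limd2 (-2.54 and -2.57) lie on the line, Tmem238 (-2.69 and -1.73) and Zbed5 (-3.44 and -0.47) above it.

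The likeness of 2 genes was measured as the root-mean-square difference of their mean-centred log2 intensities over the 14 arrays. Retreg3 and Limd2 were each other's nearest gene among all genes tested, at a difference of 0.31. For comparison, each of them varied around its own mean by 1.35 and 1.29. The next nearest to Retreg3 was Hykk, which encodes hydroxylysine kinase (0.39), and the next nearest to Limd2 was the interferon-induced Ifit1 (0.42). Tmem238 lay nearest to Dpp7, a dipeptidyl peptidase (0.34), and to Hykk (0.42). Nrep lay nearest to the carboxylesterase genes Ces1d and Ces1g, at 0.75 and 0.76 beside its own variation of 1.90. Zbed5 had no near match, the closest being the amino acid transporter gene Slc7a5 at 1.17 and Zc3h6 at 1.22, beside its own variation of 1.99. These values describe 14 arrays that fall into 4 groups, include the lsPERK arrays that chose the genes, and carry no test.

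**Figure D4:**
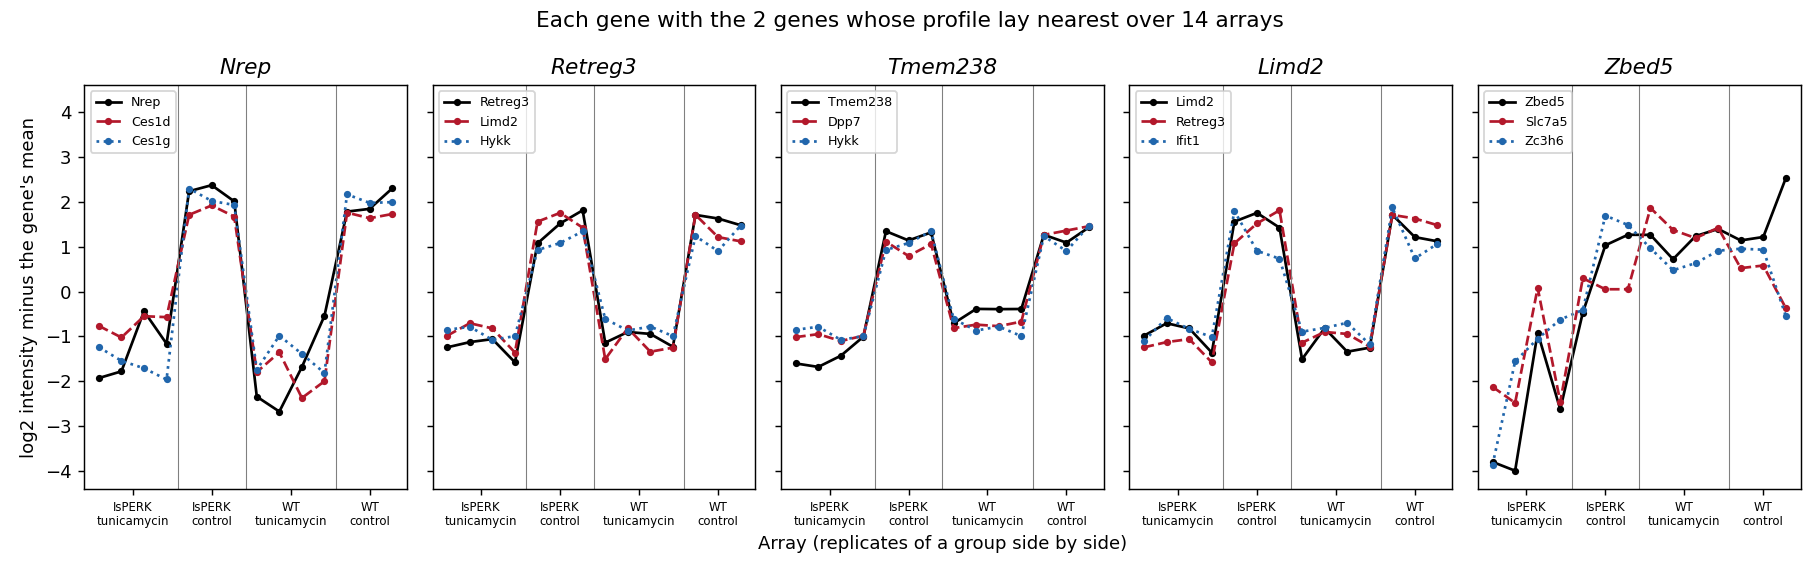
Mean-centred log2 intensity of each gene (black) and of its 2 nearest genes (dashed red and dotted blue) on the 14 arrays, with grey lines between the groups; lines join replicates only to guide the eye. Retreg3, Limd2 and Tmem238 are tracked within 0.31 to 0.42 on average, Nrep within 0.75 to 0.76, and Zbed5 only within 1.17 to 1.22.

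Upstream sequences are shown for Retreg3 and Limd2, the pair with the nearest profiles, and for Tmem238, whose lsPERK and WT tunicamycin arrays did not overlap. That separation includes the lsPERK arrays that chose the gene and was not tested. RefSeq promoter windows (GRCm38.p6, 250 bases before to 50 after a gene start) were found for 4 of the 5 genes, 6 windows in all. The 250 bases before the start are printed 5′ to 3′ on the gene's strand. Limd2 has 3 windows, the one farthest upstream is shown, and the arrays do not tell which start was in use. Capitals mark matches to the searched motifs.
Retreg3 (chr11:101119842-101120091, minus strand): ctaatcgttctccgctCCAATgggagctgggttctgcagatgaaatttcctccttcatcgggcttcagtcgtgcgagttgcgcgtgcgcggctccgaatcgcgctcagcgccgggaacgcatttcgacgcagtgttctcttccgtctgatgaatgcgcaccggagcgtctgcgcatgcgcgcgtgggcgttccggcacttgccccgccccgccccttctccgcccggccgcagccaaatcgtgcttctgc
Limd2 (chr11:106160730-106160979, minus strand): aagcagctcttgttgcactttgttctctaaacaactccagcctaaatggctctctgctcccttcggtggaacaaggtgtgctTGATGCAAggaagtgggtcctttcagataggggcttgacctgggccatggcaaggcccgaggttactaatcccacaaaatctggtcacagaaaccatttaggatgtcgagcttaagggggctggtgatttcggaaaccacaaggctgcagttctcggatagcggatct
Tmem238 (chr7:4789561-4789810, minus strand): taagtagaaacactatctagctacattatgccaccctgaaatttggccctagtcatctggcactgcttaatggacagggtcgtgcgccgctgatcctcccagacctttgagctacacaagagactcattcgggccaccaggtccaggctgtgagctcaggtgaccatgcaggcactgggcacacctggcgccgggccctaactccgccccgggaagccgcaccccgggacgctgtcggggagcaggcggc

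Both strands were searched for 6 motifs. The ER stress element (CCAAT, 9 bases of any kind, CCACG), the unfolded protein response element core TGACGTGG, the cAMP response element TGACGTCA and the C/EBP palindrome TTGCGCAA were in 0 of the 6 windows, and in 0.119%, 0.676%, 1.79% and 0.183% of all 32851 windows. The C/EBP-ATF composite element TTGCATCA, present in 0.895% of all windows, was in 1, that of Limd2 shown above, where it reads TGATGCAA on the gene's strand. The CCAAT box, which also begins the ER stress element, was in 3 of the 6 windows, those of Retreg3, Zbed5 and another start of Limd2, and in 37.4% of all windows. Tmem238 held no match in its window. A match of letters is a description of the window only.

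Genes of the pathways around Retreg3 did not move as one. Among 15 ER-phagy receptors and ATG8 proteins, limma called 3 higher and 4 lower in lsPERK liver and 3 higher and 6 lower in WT liver, with median log2 changes of 0.05 and -0.26. Tex264 (-0.79 in lsPERK, -1.11 in WT) and Calcoco1 (-0.83 and -1.12), both ER-phagy receptors, fell in both genotypes. Sqstm1, which encodes the autophagy adaptor p62, stood at 0.05 in lsPERK liver (limma adjusted p = 0.709) and rose by 1.11 in WT liver (limma adjusted p = 1.61e-05). The FAM134 relatives of Retreg3 moved in opposite directions. Retreg1 rose by log2 0.64 in lsPERK and 0.55 in WT liver, and Retreg2 fell, with log2 changes of -0.55 and -0.81 (limma adjusted p = 0.00885, 0.00568, 0.0394 and 0.00248). Of 12 ER-shaping membrane proteins, 1 was called higher and 0 lower in lsPERK liver, and 3 higher and 4 lower in WT liver, among them Reep6 (-0.58), Tmem33 (-0.55) and Atl1 (1.55) in WT liver.

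Around Limd2, 12 genes of the ILK complex and of LIM adaptor proteins had median log2 changes of -0.17 in lsPERK and -0.60 in WT liver. Limma called 0 higher and 1 lower in lsPERK liver, and 1 higher and 5 lower in WT liver. In WT liver Lims2 (-1.55), Rsu1 (-0.89) and Parva (-1.16), which encode proteins of the ILK complex, fell. In lsPERK liver these 3 stood at -0.43, -0.26 and -0.38 and did not pass. The difference between the genotypes was not tested for these genes.

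Around Nrep, 14 genes of the TGF-beta pathway had medians of 0.03 in lsPERK and 0.35 in WT liver. Limma called 3 higher and 2 lower in lsPERK liver, and 5 higher and 1 lower in WT liver. Tgif1 (0.80 and 1.18) and Id1 (0.96 and 1.62) rose in both genotypes, and Skil, a repressor of SMAD signalling, rose by log2 1.75 in WT liver and stood at 0.14 in lsPERK liver. Tgfb2 and Tgfb3 were not among the genes tested. Around Zbed5, 13 genes with transposon-derived DNA-binding domains had medians of 0.04 and 0.35, with 1 higher and 0 lower in lsPERK liver and 3 higher and 0 lower in WT liver. In WT liver these were Pogk (1.41), Thap1 (0.62) and Gtf2ird2 (0.45). Against these lists stand 7.42% of all genes called higher and 6.69% called lower in lsPERK liver, and 19.5% and 23.2% in WT liver.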

How the data were processed

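The values the authors deposited are linear intensities, 1 for each probe set on each array. MAS5 and GCOS are named in the submitters' processing notes, with versions, scaling target and genome build not given in the sources used here. Deposited intensities ran from 0.0312 to 27757, and array medians from 34.4 to 53.4. Because array medians differed by 0.63 on the log2 scale, over the limit of 0.5, log2 intensities of all but the 64 control probe sets were quantile normalized. Arrays of a group correlated at 0.942 to 0.980, and no pair shared over 0.00444% of identical values. The platform annotation gave 1 gene to 34945 probe sets, several to 932 and none to 9160; 34741 gene identifiers matched the RefSeq gene table. Probe sets above the pooled median (log2 5.37) on at least 3 arrays were kept. Tests used limma 3.58.1 in R 4.3.3 (lmFit, eBayes with trend, two-sided, Benjamini-Hochberg over all genes), separately on the 7 arrays of each genotype, so that the spread of arrays used to choose the genes does not enter the WT test. The genes and lists were chosen with earlier results of these data known. Named besides the 5 genes are check genes, up to 3 genes per list by p in WT liver, nearest profiles and the falls ranked next. Retreg1, Retreg2, Col3a1, Alb, Ass1, S100a8, S100a9, Ngp, Krt19 and Epcam were named after their values were seen. The fits were tested on simulated data. Alternatives covered scaling, filter, floor, variance, probe sets, 3′ to 5′ signal, Xist, a replicate block and each array left out. Arrays have no read depth, and their number limits the precision. Figures were made with matplotlib 3.10.9 under Python 3.11.15.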

Additional observations from a re-analysis of the deposited data

Results flagged for a closer look

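Among 78 groups of 4 arrays, from 39 genes, 3 held an array whose gap to the nearest other took up a larger share of the group's log2 range than Dixon's 95% critical value, where chance gives about 1 in 20. Tmem238 read 264 on WT tunicamycin replicate 1, below the 328 to 329 of the other 3 arrays. Eif2ak3 read 2420 on WT tunicamycin replicate 2, above 1725 to 1767 on the others. Slc7a5, the gene with the profile nearest to Zbed5, read 65.7 on lsPERK tunicamycin replicate 3, above 11.1 to 14.3 on the others; Zbed5 was also highest of its group on that array (16.7).
The difference between the lsPERK and WT responses of the 5 genes was not tested.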

How the results depend on the processing

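Nrep, Retreg3, Limd2 and Tmem238 were called lower in WT liver by limma in 20 of 20 alternatives each, and Zbed5 in 0 of 20 (adjusted p 0.185 to 0.955). The WT log2 changes ran from -4.24 to -3.32 for Nrep, -2.72 to -2.16 for Retreg3, -2.71 to -2.06 for Limd2, -1.86 to -1.19 for Tmem238 and -0.72 to -0.02 for Zbed5. With each WT array left out in turn, 4187 to 5031 genes were called, against 5155. Testing every kept probe set gave 8481 calls because more features were tested. On the values as deposited the median of all WT changes was 0.30, and 575 of 3770 calls (15.3%) were lower, against 2803 of 5155 (54.4%). Median centring gave 1516 of 4204 (36.1%). The Xist-low arrays alone, an alternative added after the data were seen, called the same 4 genes. With the replicate number as a block, the WT changes were -4.20 for Nrep, -2.60 for Retreg3, -2.57 for Limd2, -1.76 for Tmem238 and -0.55 for Zbed5, with 3743 genes called. The block changed no call of the 5 genes. Control and tunicamycin arrays of one number did not deviate together in WT liver (r = -0.25, -0.37 and 0.16 across genes). In lsPERK liver r was 0.27, 0.24 and 0.35. Arrays of unlike number ran from -0.33 (control 1, tunicamycin 3) to 0.54 (control 1, tunicamycin 2) in WT liver. In lsPERK liver they ran from -0.39 (control 3, tunicamycin 1) to 0.35 (control 3, tunicamycin 4). The highest of these joined arrays of equal Xist status and the lowest arrays of unlike status. The numbers were therefore not taken as pairs. Signals near the filter threshold limit what Zbed5 can show.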

Other observations

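Arrays were also compared by Xist signal, which the labels do not explain. In lsPERK liver the Nrep log2 difference was -4.15 on Xist-high arrays (2 against 2) and -2.81 on Xist-low arrays (2 tunicamycin against 1 control). In WT liver it was -4.45 on Xist-high arrays (1 against 1) and -3.59 on Xist-low arrays (3 against 2). Retreg3 stood at -2.48 and -3.13 in lsPERK liver and at -2.61 and -2.66 in WT liver. Limd2 stood at -2.50 and -2.51 in lsPERK liver and at -2.52 and -2.53 in WT liver. Tmem238 stood at -2.88 and -2.53 in lsPERK liver and at -1.65 and -1.76 in WT liver. These values have no test of the difference between Xist-high and Xist-low arrays.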
